A study of Mus musculus with 16 samples.

Results

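ATF4 is a bZIP transcription factor of the integrated stress response, and 10 genes of its amino acid stress programme are described here in fibroblasts of the mouse dermis, which make the collagen matrix of skin. The genes are known members or targets of this programme (Atf4, Atf5, Ddit3, Trib3, Asns, Chac1, Slc7a5, Slc3a2, Sesn2 and Ddit4). They were chosen by name, but with earlier results of these data known. Where several probe sets read a gene, the one with the highest mean was kept. All 10 were found among the 17097 genes represented on the arrays, and all 10 passed the filter on dim genes that left 14819 genes for testing. The cells came from female C57Bl/6 mice, an inbred laboratory strain, and the 16 arrays form 4 groups of 4. Old cultured cells came from mice aged 18 months and were profiled after culture, and young cultured cells came from mice aged 2 months and were profiled after culture. Old in vivo and young in vivo cells came from mice of the same ages and were profiled directly after isolation ("in vivo" is the labels' term). Each of the 4 old and 4 young mice gave 1 cultured and 1 in vivo sample, without labels that tie the pair together. No group carries a genetic change or a drug, RNA came from 5000 cells per sample in every group, and the sources used here give neither the time in culture nor the medium and its amino acids.

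In cells short of amino acids, uncharged tRNA activates the kinase GCN2 (Eif2ak4), which phosphorylates the initiation factor eIF2. General translation then slows, while translation of the Atf4 mRNA increases, so that ATF4 protein can change with little change in its mRNA. ATF4 pairs with C/EBP proteins and other bZIP factors at C/EBP-ATF response elements (CARE) and activates genes for amino acid uptake, amino acid synthesis and tRNA charging, together with feedback genes that limit the response. Protein and translation were not measured in these data, which hold only mRNA levels.

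The promoters of Asns, Chac1 and Trib3 are shown because these were the members with a match to the CARE letters and also the 3 members with the highest culture change. Each sequence is from RefSeq (GRCm38.p6) and runs 5′ to 3′ on the gene's strand, from 250 bases before the annotated start to 50 bases after it, with the matched letters in capitals. The Asns window lies at chr6:7693160-7693459 on the minus strand, the Chac1 window at chr2:119350992-119351291 on the plus strand and the Trib3 window at chr2:152344011-152344310 on the minus strand.
Asns: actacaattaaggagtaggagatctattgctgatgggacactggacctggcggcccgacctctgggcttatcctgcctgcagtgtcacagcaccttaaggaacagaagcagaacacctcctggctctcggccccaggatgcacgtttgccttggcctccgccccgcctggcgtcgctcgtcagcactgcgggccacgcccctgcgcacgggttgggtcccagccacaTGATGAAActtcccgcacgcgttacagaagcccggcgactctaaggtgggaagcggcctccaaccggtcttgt
Chac1: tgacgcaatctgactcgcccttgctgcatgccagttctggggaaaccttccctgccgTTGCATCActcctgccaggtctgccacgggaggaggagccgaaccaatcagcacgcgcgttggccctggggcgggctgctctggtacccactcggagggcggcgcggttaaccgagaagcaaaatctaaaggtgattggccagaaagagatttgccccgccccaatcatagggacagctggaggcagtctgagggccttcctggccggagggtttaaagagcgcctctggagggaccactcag
Trib3: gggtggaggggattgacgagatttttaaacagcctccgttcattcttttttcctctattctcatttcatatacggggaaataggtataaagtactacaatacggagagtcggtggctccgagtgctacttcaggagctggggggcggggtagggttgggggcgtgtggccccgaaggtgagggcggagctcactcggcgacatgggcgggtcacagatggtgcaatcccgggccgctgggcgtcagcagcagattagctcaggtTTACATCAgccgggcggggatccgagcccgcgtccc

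The motif searched was TGATGNAA, which reads TTNCATCA when it lies on the opposite strand. The match began at position -23 in Asns, on the gene's own strand. It began at -193 in Chac1 and at 15 in Trib3, both on the opposite strand, where position 1 is the annotated start. Of the 10 genes, 9 had a RefSeq promoter entry (Slc7a5 is named only), and the motif was in 3 of these 9. It was in 3.97% of all 32851 promoters of that set, and in 2.96% of the 11833 tested genes with an entry. The cyclic AMP response element TGACGTCA was in none of the 9 (0 of 9) and in 3.18% of the tested genes. A match describes the letters in this window and does not show binding. Over all tested genes with the CARE letters the median culture change was -0.13 (log2) in old and -0.18 in young cells, against -0.08 in old and -0.10 in young cells for genes without them.

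The fibroblast label was checked with 11 markers, all of which had a mean above the control level in every group, including the collagen gene Col1a1 at 12.21 (log2) in old cultured, 12.20 in young cultured, 12.46 in old in vivo and 12.58 in young in vivo cells. Their levels were not equal between conditions: 9 of the 11 were called lower in culture at each age, with Lum at -4.82 ± 0.16 in old and -4.45 ± 0.16 in young cells, Fap at -2.85 ± 0.22 and -3.57 ± 0.22, and Dpt at -2.90 ± 0.12 and -2.81 ± 0.12 (log2 change). The control level, used here as a guide to background, was 4.34 (log2), the 95th percentile of 12 poly-A control probe sets. Of the fibroblast markers, Pdgfra was closest to it, with means from 4.63 in young cultured to 5.05 in old in vivo cells. The keratinocyte markers Krt5, Krt14, Krt10, Krt15 and Trp63 also had means above it in every group. Passing this level therefore does not by itself identify a cell type. Measures of other cells and of RNA quality moved with culture. The summed linear level of 8 keratinocyte markers was 209 to 233 in old cultured and 208 to 226 in young cultured arrays, against 399 to 1288 in old in vivo and 357 to 470 in young in vivo arrays, with Krt1, Epcam and Cdh1 below the control level in all groups. That of 10 macrophage and leukocyte markers was 260 to 281 and 258 to 317 in old and young cultured arrays, against 519 to 680 and 501 to 838 in old and young in vivo arrays, with Ptprc, Adgre1, C1qa and C1qb below the control level throughout. The fibroblast markers themselves summed to 16326 to 17360 in old cultured and 16169 to 17964 in young cultured arrays, against 28736 to 32851 in old in vivo and 31104 to 31418 in young in vivo arrays. For beta-actin, the value at the 3′ end minus that at the 5′ end, which depends on RNA quality and amplification, was 0.10 ± 0.07 (SD, log2, n = 4) in old cultured and 0.07 ± 0.04 in young cultured samples, against -0.46 ± 0.11 in old in vivo and -0.41 ± 0.07 in young in vivo samples. Endothelial markers (7) summed to 113 to 140 and 126 to 130 in old and young cultured arrays, against 293 to 631 and 236 to 328 in old and young in vivo arrays. Of these, Emcn, Tie1 and Cldn5 lay below the control level in all groups, Pecam1 in all but old in vivo cells, and Tek in cultured cells. Tek and Kdr fell most in culture (-3.00 and -2.78 in old, -2.44 and -1.92 in young cells, log2). Pericyte markers summed to 129 to 178 and 130 to 217 in old and young cultured arrays, against 284 to 492 and 198 to 270 in old and young in vivo arrays, and 5 melanocyte markers to 83 to 93 and 82 to 90, against 100 to 163 and 102 to 155. Among pericyte markers, Kcnj8 fell below the control level in culture, while Mcam was higher (1.55 ± 0.22 in old, 2.12 ± 0.22 in young cells, log2). Rgs5 (0.03 in old, -0.29 in young cells) was called lower in young cells alone (limma, adjusted p = 0.0206). Notch3 (0.07 and -0.02) was not called. The melanocyte markers Dct, Tyrp1 and Tyr lay below the control level in all groups. The part of these measures in the changes below was not tested.

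The first comparison asked how the stress genes of cultured cells differed from those of freshly isolated cells. Among the 10 genes, the enzyme genes Asns and Chac1 and the transporter genes Slc7a5 and Slc3a2 were higher in culture at both ages. The Atf4 mRNA itself was lower. Other amino acid transporters, described below, went both ways. In old cells 7 of the 10 genes were higher, 1 was lower and 2 did not pass an adjusted p of 0.05, and in young cells 8 were higher and 2 lower. Other scalings of the arrays left 6 higher in old and 6 to 7 higher in young cells. Culture moved a large part of the transcriptome, so these counts stand against 30.2% of tested genes higher and 32.5% lower in old cells, and 32.6% higher and 38.6% lower in young cells. The median change of the 10 genes was 0.93 (log2) in old and 0.92 in young cells, beside -0.09 and -0.12 over all tested genes. The 10 genes were chosen with earlier results of these data known. Their counts and medians are therefore a description and not an independent test. Of all culture calls, 48.1% were higher in old and 45.8% in young cells, against 34.2% and 31.4% after scaling to the 75th percentile. In these bulk samples, fewer cells that express a gene and less RNA per cell cannot be told apart, and a change during isolation of the in vivo cells cannot be told apart from a change during culture.

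**Figure D1:**
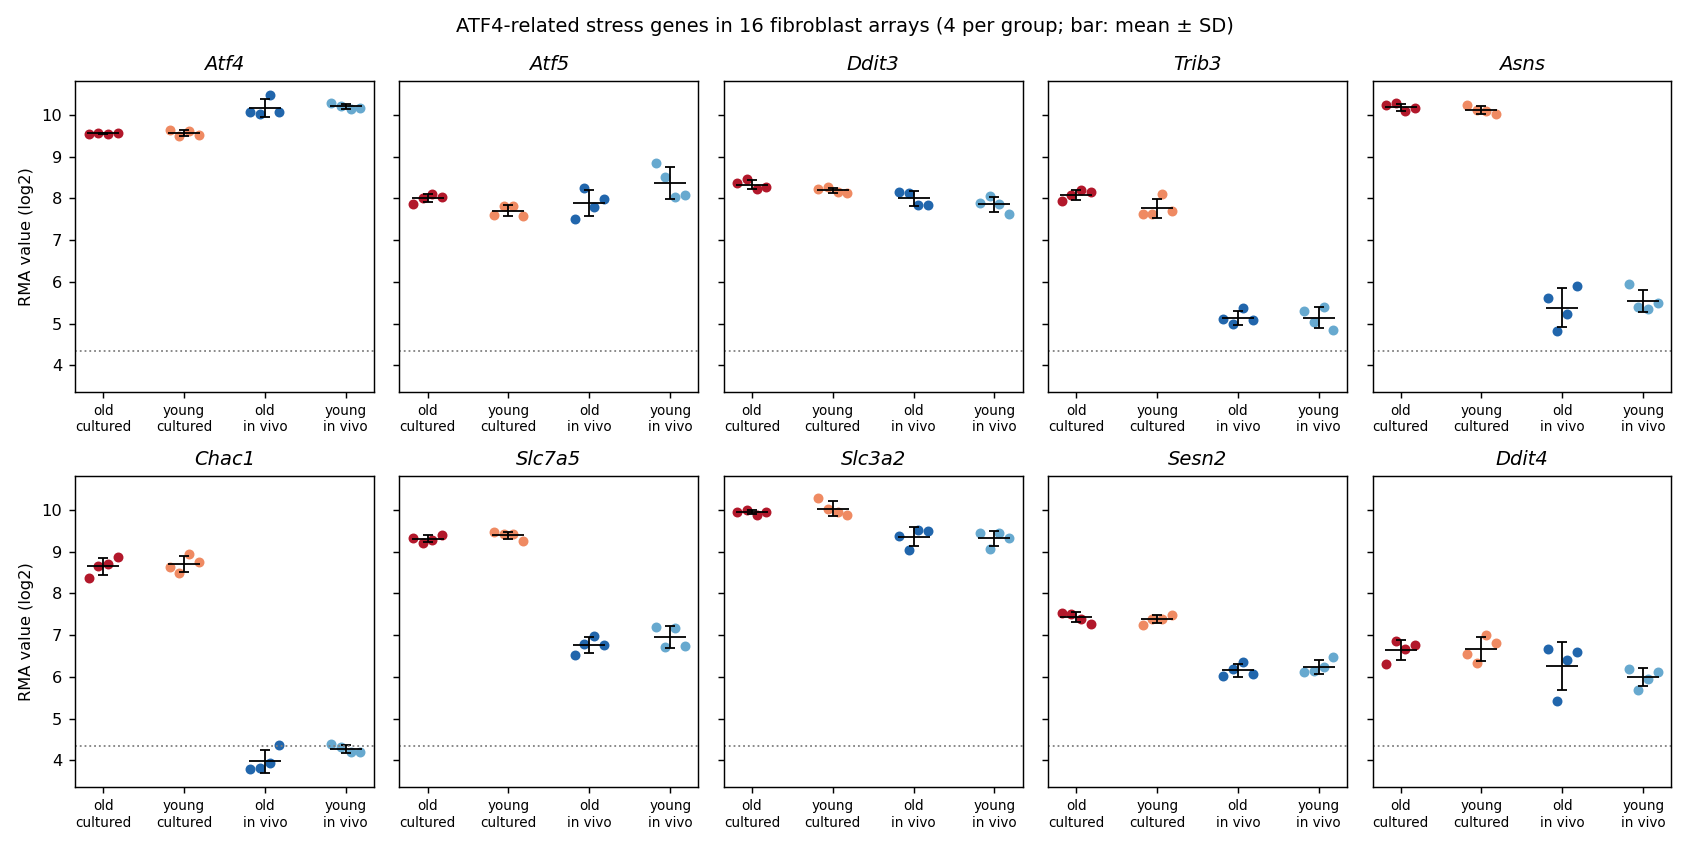
Log2 RMA value (vertical axis) of each of the 10 genes in every array, by group: old cultured, young cultured, old in vivo and young in vivo, with 4 arrays each. Points are arrays, bars are the mean ± SD, and the dotted line is the control level of 4.34. Asns, Chac1, Trib3 and Slc7a5 show a wide gap between all cultured and all in vivo arrays, Atf4 lies lower in all cultured arrays, and old and young points lie close together for most genes.

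Asns encodes asparagine synthetase, which makes asparagine from aspartate and glutamine. Its log2 values were 10.23, 10.27, 10.08 and 10.16 in old cultured cells and 10.23, 10.11, 10.09 and 10.02 in young cultured cells, against 5.60, 4.81, 5.23 and 5.89 in old in vivo cells and 5.94, 5.39, 5.34 and 5.49 in young in vivo cells. Every cultured array lay above every in vivo array, and the cultured arrays were also closer to one another. The change was 27.9-fold in old cells (log2 change 4.80 ± 0.18, standard error; adjusted p = 8.48e-13) and 23.8-fold in young cells (4.57 ± 0.18, adjusted p = 1.63e-12), both from limma with Benjamini-Hochberg adjustment over all genes tested. Ranked from the largest increase, Asns was at place 17 in old and place 30 in young cells among the 14819 genes.

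Chac1 encodes a gamma-glutamyl cyclotransferase that degrades glutathione. It had log2 values of 8.38, 8.67, 8.71 and 8.87 in old cultured and 8.64, 8.50, 8.95 and 8.76 in young cultured cells, against 3.79, 3.82, 3.94 and 4.38 in old in vivo and 4.39, 4.33, 4.20 and 4.21 in young in vivo cells. In each in vivo group 1 of 4 arrays lay above the control level, so the gene was not clearly above background in fresh cells and its exact change is not known. With each in vivo array set to at least the control level, Chac1 was 19.8-fold higher in culture in old cells and 20.5-fold higher in young cells. The difference was called at both ages (limma, adjusted p = 5.18e-14 in old and 9.31e-14 in young cells; fitted log2 changes 4.67 and 4.43).

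Trib3 encodes a pseudokinase that is induced by ATF4 and binds it, a feedback inhibitor of the response. It had log2 values of 7.93, 8.07, 8.19 and 8.15 in old cultured and 7.62, 7.63, 8.10 and 7.69 in young cultured cells, against 5.11, 4.99, 5.38 and 5.08 in old in vivo and 5.31, 5.03, 5.39 and 4.84 in young in vivo cells. The conditions did not overlap, and the in vivo values of the ages did. Trib3 was 7.70-fold higher in culture in old cells (log2 change 2.94 ± 0.13, adjusted p = 1.06e-11) and 6.14-fold higher in young cells (2.62 ± 0.13, adjusted p = 4.48e-11).

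Slc7a5 and Slc3a2 encode the 2 chains of the transporter for large neutral amino acids such as leucine: SLC7A5 (LAT1) carries the substrate, and SLC3A2 (4F2hc, CD98) is the heavy chain that brings it to the membrane. Slc7a5 had log2 values of 9.34, 9.21, 9.28 and 9.40 in old cultured and 9.47, 9.42, 9.42 and 9.26 in young cultured cells, against 6.53, 6.79, 6.98 and 6.77 in old in vivo and 7.20, 6.71, 7.18 and 6.74 in young in vivo cells. It was thus higher in all 8 cultured arrays, by 5.82-fold in old (log2 change 2.54 ± 0.12, adjusted p = 1.83e-11) and 5.41-fold in young cells (2.44 ± 0.12, adjusted p = 3.02e-11). The heavy chain changed less. Slc3a2 averaged 9.95 ± 0.05 (SD, log2, n = 4) in old cultured and 10.03 ± 0.17 in young cultured cells, against 9.36 ± 0.23 in old in vivo and 9.32 ± 0.18 in young in vivo cells. No cultured array lay below 9.88 and no in vivo array above 9.53. Its increase was 1.50-fold in old (log2 change 0.59 ± 0.12, adjusted p = 4.36e-04) and 1.64-fold in young cells (0.71 ± 0.12, adjusted p = 5.98e-05), and the 95% intervals of the changes of the 2 chains did not overlap at either age (2.29 to 2.79 for Slc7a5 and 0.33 to 0.84 for Slc3a2 in old, 2.18 to 2.69 and 0.46 to 0.96 in young cells). The difference between the genes' changes was not itself tested. After cyclic loess the Slc3a2 change was 0.33 in old and 0.36 in young cells and still called (adjusted p = 0.025 and 0.0136).

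Sesn2 and Ddit4 both restrain the growth kinase mTORC1. Sestrin2, the product of Sesn2, is a leucine sensor, and DDIT4 (REDD1) acts through the TSC complex. Sesn2 ranged from 7.27 to 7.54 (log2) in old cultured and from 7.25 to 7.48 in young cultured cells, against 6.02 to 6.36 in old in vivo and 6.12 to 6.49 in young in vivo cells. It was 2.40-fold higher in culture in old (log2 change 1.26 ± 0.10, adjusted p = 1.33e-08) and 2.20-fold higher in young cells (1.14 ± 0.10, adjusted p = 4.06e-08). A second, dimmer probe set of Sesn2 gave larger changes in the same direction, 1.63 ± 0.12 in old and 1.84 ± 0.12 in young cells, both past the threshold in limma with adjustment over all probe sets (adjusted p = 4.50e-09 and 8.46e-10).

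Ddit4 had the widest spread of the 10 genes in old in vivo cells. Its log2 values were 6.31, 6.85, 6.67 and 6.77 in old cultured and 6.54, 6.34, 7.00 and 6.82 in young cultured cells, against 6.67, 5.43, 6.40 and 6.59 in old in vivo and 6.18, 5.70, 5.95 and 6.13 in young in vivo cells. Old cultured and old in vivo values overlapped, and young cultured and young in vivo values did not. The change was 0.38 ± 0.23 (log2, adjusted p = 0.152, 95% interval -0.10 to 0.85) in old cells and 0.69 ± 0.23 (adjusted p = 0.0128) in young cells. With arrays scaled to their 75th percentile the young change was 0.45 and not called (adjusted p = 0.0778), and without old in vivo replicate 2 the old change was 0.10 (adjusted p = 0.624).

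The transcription factors of the programme moved little or in the opposite direction. Atf4 had log2 values of 9.55, 9.57, 9.53 and 9.56 in old cultured and 9.63, 9.48, 9.62 and 9.51 in young cultured cells, against 10.06, 10.02, 10.47 and 10.07 in old in vivo and 10.28, 10.22, 10.15 and 10.17 in young in vivo cells. All cultured arrays lay below all in vivo arrays. Atf4 was 1.52-fold lower in culture in old cells (log2 change -0.60 ± 0.09, adjusted p = 2.38e-05) and 1.56-fold lower in young cells (-0.65 ± 0.09, adjusted p = 9.75e-06). A second probe set, close to the control level, was also lower (-0.52 ± 0.14 in old, -0.42 ± 0.14 in young cells, adjusted p = 0.00434 and 0.0137). The fall was larger after scaling to the 75th percentile (-0.76 in old, -0.88 in young cells) and after cyclic loess (-0.86 and -0.99). In size it was within the bulk of all genes, whose changes ran from -1.46 at the 5th percentile to 1.62 at the 95th in old cells and from -1.47 to 1.83 in young cells.

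Ddit3 encodes CHOP, a C/EBP-family factor linked to cell death in prolonged stress. Its log2 values were 8.37, 8.45, 8.22 and 8.27 in old cultured and 8.22, 8.27, 8.16 and 8.13 in young cultured cells, against 8.16, 8.13, 7.85 and 7.84 in old in vivo and 7.88, 8.06, 7.87 and 7.62 in young in vivo cells. Cultured and in vivo arrays of an age did not overlap. The increase was small, 0.33 ± 0.10 (log2, adjusted p = 0.00998) in old and 0.34 ± 0.10 (adjusted p = 0.00788) in young cells, and it depended on the scaling. After scaling to the 75th percentile it was 0.17 in old (adjusted p = 0.150) and 0.10 in young cells (0.400), and after cyclic loess 0.05 (0.754) and -0.06 (0.710). Cyclic loess therefore turned its direction in young cells, and scaling to the 75th percentile shifted the median of all genes by -0.16 in old and -0.24 in young cells.

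Atf5, a bZIP factor close to ATF4 that is regulated by translation in a similar way, was called in young cells alone. Its log2 values were 7.87, 8.00, 8.10 and 8.02 in old cultured and 7.60, 7.82, 7.82 and 7.57 in young cultured cells, against 7.51, 8.25, 7.79 and 7.98 in old in vivo and 8.84, 8.51, 8.03 and 8.09 in young in vivo cells. In young cells every cultured array lay below every in vivo array and the change was -0.66 ± 0.17 (log2, adjusted p = 0.00224), whereas in old cells the conditions overlapped and the change was 0.12 ± 0.17 (adjusted p = 0.557, 95% interval -0.24 to 0.47). After cyclic loess the change in young cells was -1.05, and that in old cells turned to -0.16 without a call. The difference between these changes is the interaction, 0.78 ± 0.24 (log2), which did not pass the threshold (adjusted p = 0.164, and 0.0681 to 0.299 under the alternatives tried).

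**Figure D2:**
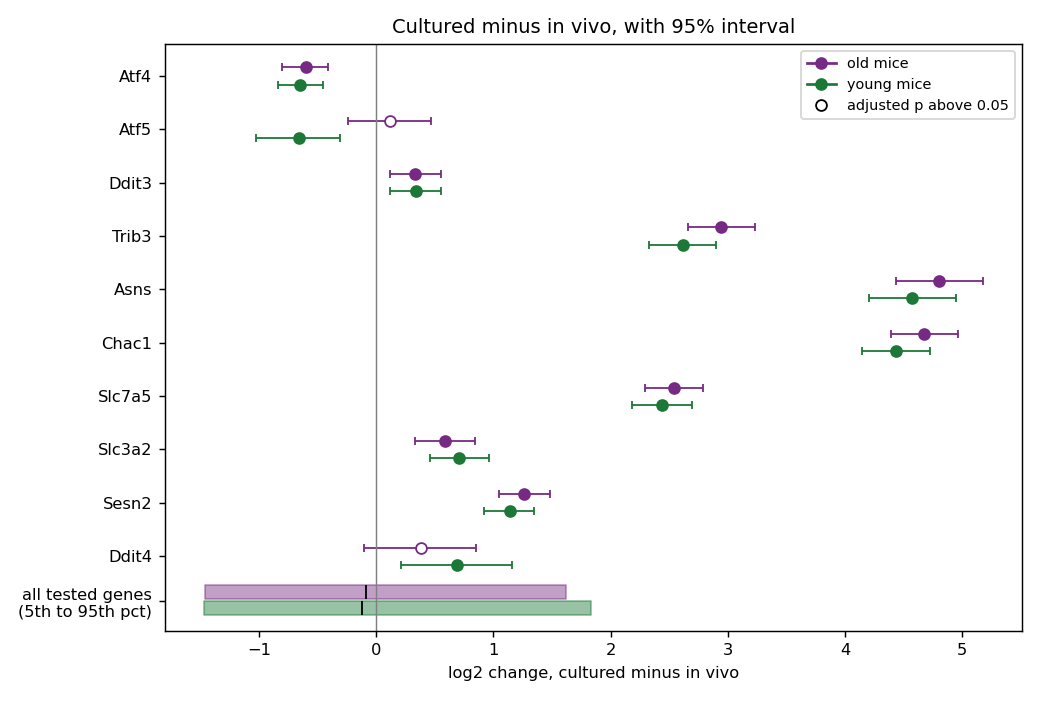
Log2 change of each gene, cultured minus in vivo (horizontal axis), in old mice (purple) and young mice (green), with 95% intervals. Filled points passed an adjusted p of 0.05 and open points did not, and the bands at the bottom span the 5th to the 95th percentile of all tested genes with their median. Asns and Chac1 lie above 4 at both ages and Atf4 lies below 0, and Atf5 lies below 0 in young mice and above 0, uncalled, in old mice.

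The second comparison set old against young cells that had not been cultured. None of the 10 genes passed the threshold in limma on the 8 in vivo arrays (0 higher and 0 lower), beside 0.911% of tested genes higher and 0.439% lower in old than in young cells. At an unadjusted p under 0.05 there was 1 of the 10 genes, Atf5, beside 2217 of all 14819 tested genes. Atf5 averaged 7.88 ± 0.31 (SD, log2, n = 4) in old in vivo and 8.37 ± 0.38 in young in vivo cells, a difference of -0.48 ± 0.20 (adjusted p = 0.290, limma) with overlapping groups. With all 16 arrays in the fit 2 of the 10 had an unadjusted p under 0.05, beside 2912 of all tested genes. In that fit 0 of the 10 passed the threshold, beside 900 of all tested genes.

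The other differences between old and young in vivo cells were small against the spread between samples. Chac1 averaged 3.98 ± 0.27 in old in vivo and 4.28 ± 0.09 in young in vivo cells (SD, log2, n = 4), and since both means lay below the control level their difference is not read as a change. Asns averaged 5.38 ± 0.47 in old and 5.54 ± 0.27 in young cells, with an interval of -0.65 to 0.33 for the difference. The interval for Atf4 was -0.31 to 0.21, that for Slc7a5 -0.52 to 0.14 and that for Ddit4 -0.26 to 0.83. With 4 samples per age, true differences of any size within these intervals remain possible. The intervals were not adjusted for the number of genes tested. Keratinocyte markers were highest in old in vivo replicate 1 (1288, against 399 to 460 in the other old in vivo arrays), and leaving out that or any other in vivo array gave no call for any of the 10 genes.

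The third comparison asked the same of cultured cells. None of the 10 genes passed in limma on the 8 cultured arrays, and none of all 14819 tested genes did (0.0% higher and 0.0% lower, lowest adjusted p = 0.997). At an unadjusted p under 0.05 there were 533 genes, among them Atf5 and Trib3. With all 16 arrays in the fit 276 genes had an unadjusted p under 0.05 and 0 passed (lowest adjusted p = 0.0723).

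Atf5 averaged 8.00 ± 0.10 (SD, log2, n = 4) in old cultured and 7.70 ± 0.14 in young cultured cells. The values did not overlap, although the share of all tested genes without overlap was not counted. The difference was 0.30 ± 0.08 (adjusted p = 0.997, limma). Trib3 averaged 8.08 ± 0.11 in old cultured and 7.76 ± 0.23 in young cultured cells, where the single array at 8.10 overlapped the old range, and the difference was 0.33 ± 0.11 (adjusted p = 0.997). Neither difference held after adjustment. For the remaining 8 genes the difference lay between -0.09 and 0.13, and the widest of their intervals was that of Ddit4, from -0.39 to 0.34.

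The interaction, which is the old minus young difference of cultured cells minus that of in vivo cells, was also not called for any of the 10 genes (0 higher and 0 lower), beside 0.196% of tested genes higher and 0.391% lower. The 10 values ran from -0.31 for Ddit4 to 0.78 for Atf5. Only Atf5 of the 10 had an unadjusted p under 0.05, beside 1823 of all tested genes. For Asns the interaction was 0.23 ± 0.25 (adjusted p = 0.757) and for Trib3 0.33 ± 0.19 (0.515).

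**Figure D3:**
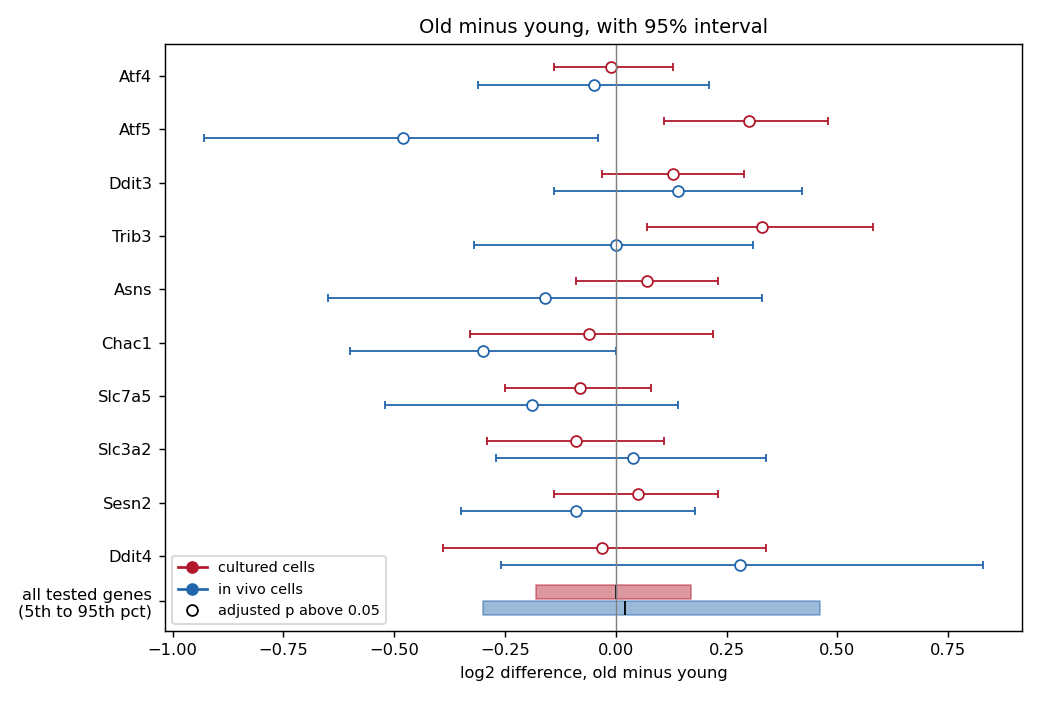
Log2 difference of each gene, old minus young (horizontal axis), in cultured cells (red) and in vivo cells (blue), with 95% intervals; the bands at the bottom span the 5th to the 95th percentile of all tested genes. All points are open because no gene passed the adjusted threshold in either condition. Atf5 is the gene whose 2 values lie farthest apart, at 0.30 in cultured and -0.48 in in vivo cells.

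Related genes of the pathway were read from lists chosen for this report, with earlier results of these data known. The genes named are those with the largest changes in each list. Enzymes of amino acid synthesis and of the linked one-carbon pathway moved in the same direction as Asns. Of 11 tested, 10 were higher and 1 lower in culture in old cells (median 2.42, log2), and 9 were higher and 1 lower in young cells (median 2.12). Over all tested genes the shares were 30.2% higher and 32.5% lower in old cells, and 32.6% and 38.6% in young cells. Psat1, the aminotransferase of serine synthesis, changed by 4.48 ± 0.20 in old and 4.78 ± 0.20 in young cells (adjusted p = 8.89e-12 and 3.92e-12). The enzyme that was lower was Cbs, of the transsulfuration pathway (-1.05 ± 0.13 in old, -1.50 ± 0.13 in young cells), named after its values were seen. Bcat1, which transaminates branched-chain amino acids, and Aldh1l2, a mitochondrial folate enzyme, were the 2 genes of the list called for age in vivo, both lower in old cells (limma, adjusted p = 7.42e-06 and 4.87e-04). Bcat1 averaged 4.48 in old in vivo and 8.60 in young in vivo cells, and Aldh1l2 averaged 4.18 in old in vivo and 6.88 in young in vivo cells. The old in vivo means lay near the control level for Bcat1 and below it for Aldh1l2. With arrays set to at least that level, the young in vivo means were 16.7-fold and 5.61-fold above the old ones. Of the 4 pericyte markers on the arrays, Kcnj8 alone was called for age in vivo, higher in old cells (1.06 ± 0.22, log2, adjusted p = 0.0494, limma). Rgs5 (-0.24 ± 0.12), Notch3 (-0.22 ± 0.10) and Mcam (0.12 ± 0.10) were not called, and the list median was -0.05. The 4 markers summed to 284 to 492 in old in vivo and 198 to 270 in young in vivo arrays without overlap. Kcnj8 was by far the brightest of them, with means of 8.23 in old and 7.17 in young in vivo cells (log2). The means of Rgs5, Notch3 and Mcam lay between 4.56 and 4.92 there, so the sum mainly repeats the Kcnj8 difference. The macrophage marker Csf1r (-1.07 ± 0.15, adjusted p = 0.00995, limma) and the fibroblast marker Col1a2 (-0.64 ± 0.13, adjusted p = 0.0493) were called lower in old in vivo cells. The other tested markers of their lists were not called (6 and 10). The part of these marker differences in the age differences of Bcat1 and Aldh1l2 was not tested.

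The cytosolic aminoacyl-tRNA synthetases, which charge tRNA with amino acids, were all higher in culture: 17 of 17 tested at both ages, with medians of 1.30 in old and 1.42 in young cells, and 17 of 17 also after either other scaling. Of all tested genes, 30.2% were higher in old and 32.6% in young cells. Rars changed by 2.19 ± 0.16 in old and 2.73 ± 0.16 in young cells (adjusted p = 5.67e-09 and 3.36e-10), Farsb by 1.79 ± 0.19 and 2.31 ± 0.19, and Lars by 1.94 ± 0.12 and 2.04 ± 0.12. The CARE letters were in the promoters of 5 of the 13 synthetases with an entry (Aars, Gars, Iars, Tars and Yars) and of 3 of 13 amino acid synthesis genes (Got1, Pck2 and Pycr1). Of these, Tars, Got1 and Pycr1 were not among the tested genes, so their culture change is not known. Only 17 of 20 listed synthetases and 11 of 15 listed amino acid synthesis genes were tested. The CARE letters were also in 3 of 10 stress transcription factor genes (Atf3 and Nupr1, which were lower in culture, and Jdp2). They were in 4 of 10 other ATF4 targets too (Fgf21, Herpud1, Nupr1 and Vldlr). None of 11 genes of the eIF2 list, 14 of the mTORC1 list and 11 of the endoplasmic reticulum list held them (0 in each).

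Of 11 other amino acid transporters tested, 6 were higher and 4 lower in old cells and 5 higher and 3 lower in young cells, beside 30.2% and 32.5% of all tested genes in old and 32.6% and 38.6% in young cells. After scaling to the 75th percentile 6 were higher and 5 lower in old cells, and 5 higher and 5 lower in young cells. The list median then moved from 0.73 to 0.57 in old and from 0.20 to -0.03 in young cells. Slc7a3, a carrier of cationic amino acids, changed by 3.81 ± 0.13 in old and 3.89 ± 0.13 in young cells (adjusted p = 4.03e-13 and 3.36e-13), from in vivo means near the control level (4.43 in old, 4.32 in young). With arrays set to at least that level it was 13.6-fold higher in old and 14.0-fold higher in young cells. Slc38a1, a glutamine carrier, changed by 2.29 ± 0.30 and 2.78 ± 0.30, and Slc43a2, a carrier of large neutral amino acids, by -2.56 ± 0.16 and -2.30 ± 0.16. Slc38a2 was also lower (-1.07 ± 0.14 in old, -0.85 ± 0.14 in young cells), named after its values were seen. Of 4 tested light chains that can pair with SLC3A2, Slc7a5 included, 3 were higher and 1 lower in old cells and 3 were higher in young cells. Among them Slc7a6 rose by 1.43 ± 0.10 in old and 1.25 ± 0.10 in young cells. The cystine carrier Slc7a11 averaged 4.35 in old cultured and 4.25 in young cultured cells, against 3.38 in old in vivo and 3.30 in young in vivo cells, at or below the control level throughout, so its calls give no usable size.

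For every list of this paragraph, the shares over all tested genes were 30.2% higher and 32.5% lower in old cells. In young cells they were 32.6% and 38.6%. Upstream of ATF4, the eIF2 list had 6 of 12 genes higher and 2 lower in old cells and 7 higher and 2 lower in young cells. After scaling to the 75th percentile the counts were 4 and 3 in old and 5 and 4 in young cells. Ppp1r15a (GADD34), the phosphatase subunit that restores translation and is itself a stress target, was much lower in culture, with a change of -2.95 ± 0.10 in old and -2.92 ± 0.10 in young cells (adjusted p = 4.25e-13 and 4.98e-13). The eIF2B subunits Eif2b2 and Eif2b1 rose, by 1.14 ± 0.14 and 1.07 ± 0.10 in old and by 1.95 ± 0.14 and 1.20 ± 0.10 in young cells. Among stress transcription factors 3 of 11 were higher and 7 lower at both ages (1 higher at both ages after either other scaling), with Atf3 at -3.29 ± 0.13 in old and -3.27 ± 0.13 in young cells (adjusted p = 2.51e-12 and 2.59e-12) and Cebpd at -1.95 ± 0.22 and -1.75 ± 0.22. The immediate early genes, which respond quickly to stimuli, had 12 of 14 lower and 1 higher at both ages, with medians of -1.66 in old and -1.85 in young cells. The higher one was Fosl1, at 0.75 in old and 1.56 in young cells, and it is named after its values were seen; in old cells it was not called after cyclic loess. Atf3 averaged 8.18 in old cultured and 8.46 in young cultured cells, against 11.48 in old in vivo and 11.73 in young in vivo cells.

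Most genes of endoplasmic reticulum stress, another route to ATF4, were not called. Of 14 tested, 3 were higher and 2 lower in old cells and 4 higher and 1 lower in young cells, with medians of 0.24 and 0.14. Every list of this paragraph stands beside 30.2% of all tested genes higher and 32.5% lower in old cells. In young cells these shares were 32.6% and 38.6%. The direction of this list depended on the scaling: after cyclic loess 1 was higher and 6 lower in old cells and 2 higher and 5 lower in young cells, with medians of -0.01 and -0.16. The chaperone gene Dnajb9 was lower in culture (-1.30 ± 0.13 in old, -1.50 ± 0.13 in young cells). The chaperone gene Hyou1 changed by 0.53 ± 0.24 in old (adjusted p = 0.0583) and 1.06 ± 0.24 in young cells (adjusted p = 8.09e-04). The mTORC1 list had 6 of 12 higher and 1 lower at both ages, led by Rheb, the GTPase that activates mTORC1 (1.28 ± 0.13 in old, 1.47 ± 0.13 in young cells), and after cyclic loess 3 higher and 1 lower in old and 4 higher and 2 lower in young cells. Of 9 other known ATF4 targets, 2 were higher and 2 lower in old cells and 3 higher and 4 lower in young cells, which is near the 30.2% higher and 32.5% lower (old) and 32.6% and 38.6% (young) of all tested genes. Among them the death receptor gene Tnfrsf10b was at 2.76 ± 0.13 and 2.81 ± 0.13, Vldlr at 2.37 ± 0.15 and 2.14 ± 0.15, and Ndrg1 at -3.66 ± 0.14 and -3.13 ± 0.14.

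Among paralogs of the stress genes, Trib2, a relative of Trib3, rose in culture by 3.38 ± 0.14 in old and 4.11 ± 0.14 in young cells (adjusted p = 3.41e-12 and 3.39e-13). The sestrin gene Sesn1 fell by 1.60 ± 0.17 in old and 1.95 ± 0.17 in young cells, while Sesn2 rose. Of 11 paralogs tested, 4 were higher and 5 lower in old cells and 4 higher and 4 lower in young cells, beside 30.2% and 32.5% of all tested genes in old and 32.6% and 38.6% in young cells, so the counts are near the background.

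**Figure D4:**
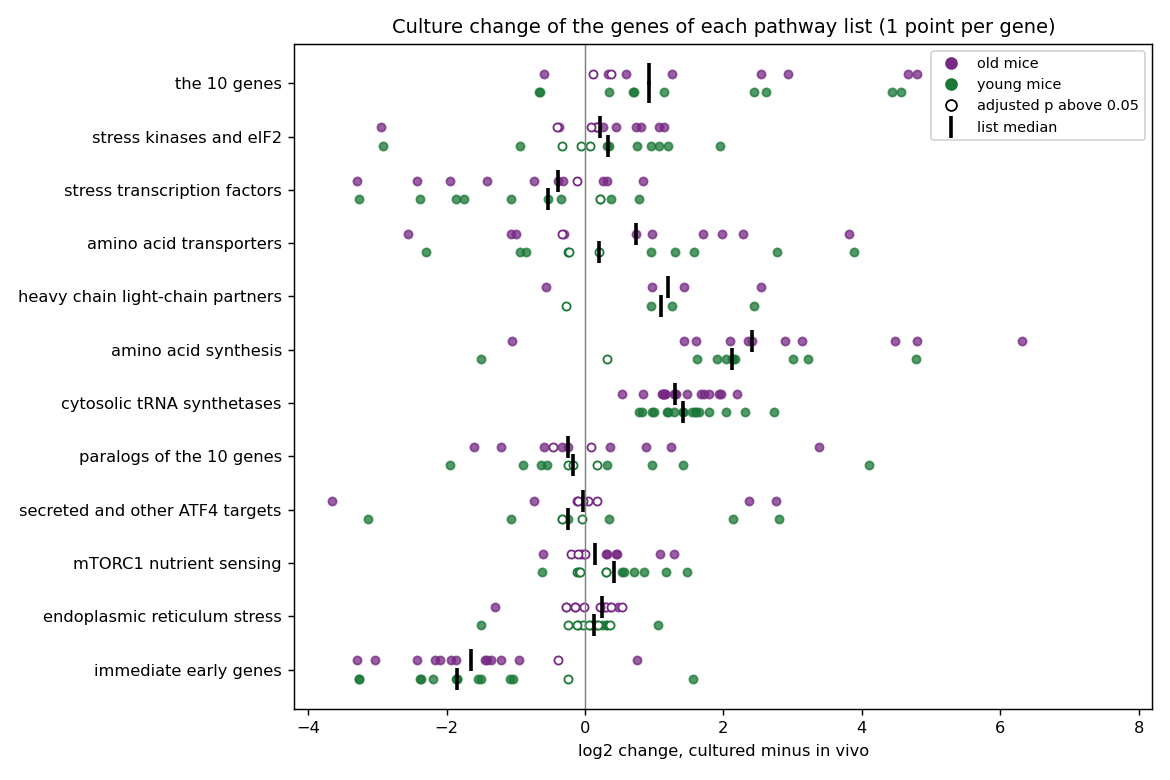
Log2 change, cultured minus in vivo (horizontal axis), of each gene of the pathway lists, in old mice (purple) and young mice (green); open points did not pass an adjusted p of 0.05 and black bars are list medians. All 17 synthetases lie above 0, most amino acid synthesis genes lie above 1, and most immediate early genes lie below 0.

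The genes whose pattern over the 16 arrays was most like that of a member were found by the root mean square difference of log2 values after subtracting each gene's mean. Nearest to Asns were Chac1 (0.250), Psat1 (0.273), Cdca8 (0.275), Trip13 (0.307) and Cdkn3 (0.314), so that another member was the nearest of 14818 genes. Nearest to Trib3 were Kif20a (0.225), Cyb5r1 (0.239), Tnfrsf10b (0.241), Smc4 (0.247) and Vcl (0.251), with Slc7a5 at place 12 (0.262). Nearest to Atf4 were Zc3h11a (0.099), Rad52 (0.103), Reep3 (0.108), Lamtor4 (0.110) and Laptm4a (0.110), while Asns stood at place 14797. This measure is dominated by the difference between the conditions and describes these arrays only.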

How the data were processed

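Gene expression was measured on 16 Affymetrix mouse arrays from 5000 cells each, after 23 cycles of cDNA amplification, per the labels' protocols. The deposited values are log2 intensities (2.70 to 13.08, log base taken from their range) that the authors made with RMA and affy, per the submitters' processing notes, with versions not given in the sources used here. RMA equalises the distributions of the arrays, so changes are relative to the other genes, and it narrows the changes of dim genes. The table holds 45141 probe sets, of which 28898 have 1 gene symbol, 551 have several and 15692 are not listed in the platform annotation. By gene ID, 28689 probe sets matched the RefSeq table (GRCm38.p6). Of several probe sets of a gene the one with the highest mean was used, and a gene was tested if at least 4 arrays exceeded 3.87, the 25th percentile of all values.

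Differences were fitted with limma 3.58.1 (R 4.3.3). Culture changes and the interaction used all 16 arrays. Age differences used the 8 arrays of the condition, because the median residual SD was 0.129 (log2) among cultured and 0.185 among in vivo arrays. Two-sided p-values were adjusted by Benjamini-Hochberg over all genes tested. For genes near the control level (4.34), folds were also computed with the dimmer group's arrays raised to at least that level, a step added after the values were seen. The fits were tested on simulated data. Which samples come from one mouse or one day of collection is not in the labels. No block was therefore fitted, and culture comparisons treat samples of a mouse as independent. The number of arrays limits the precision. The genes named are the 10 members, up to 3 genes per list with the largest changes, and the 5 genes nearest to Atf4, Asns and Trib3. The members and lists were chosen with earlier results of these data known. Alternatives were another scaling, probe set rule, filter, variance prior, array weights and leaving out each array.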

Additional observations from a re-analysis of the deposited data

Results flagged for a closer look

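Each of the 10 genes was checked in each of the 4 groups for a sample that stood far from the other 3, and chance alone marks about 1 in 20 groups. In 40 such checks 2 samples stood apart. Atf4 was at 10.47 (log2) in old in vivo replicate 3, against 10.02 to 10.07 in the other old in vivo arrays. Trib3 was at 8.10 in young cultured replicate 3, against 7.62 to 7.69 in the other young cultured arrays.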

How the results depend on the processing

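No paired analysis was possible because the labels tie no cultured sample to an in vivo sample of its mouse. Of 840 recomputed values of the 10 genes, 835 kept their call, and in 23 of these a change that was not called turned sign. The 5 that did not concerned Ddit3 and Ddit4 in culture. Cyclic loess turned Ddit3 in young cells to -0.06. It took the call from Ddit3 in old cells (0.05), and scaling to the 75th percentile took it from Ddit3 in young (0.10) and old cells (0.17) and from Ddit4 in young cells (0.45). The counts of the 10 genes called stayed between 6 and 8 higher and between 1 and 2 lower in culture, and at 0 for age and the interaction.

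Counts over all genes moved more. For age in vivo, 135 genes were higher and 65 lower, against 665 and 235 with all 16 arrays in the fit. The lower genes numbered 120 after scaling to the 75th percentile, 111 after cyclic loess and 108 with a trend and robust prior. Leaving out each in vivo array gave 29 to 215 higher and 31 to 91 lower genes, with 215 higher without old in vivo replicate 1 and 29 to 89 higher without any other. For the interaction, 29 genes were higher and 58 lower; the higher genes numbered 52 after either scaling, and leaving out each array gave 21 to 52 higher and 22 to 148 lower genes. The 148 and the 52 came without old in vivo replicate 1, 122 lower genes without young in vivo replicate 1, and 22 without young cultured replicate 4. The cause of these shifts was not tested. Chac1 in vivo lay near the control level, which limits any age difference there.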
